A study of Drosophila melanogaster with 12 samples.

Results

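The 6 genes described here encode receptors for GABA, the main inhibitory transmitter of the insect brain. They are Rdl, Lcch3 and Grd, which encode subunits of ligand-gated ion channels, and GABA-B-R1, GABA-B-R2 and GABA-B-R3, which encode receptors coupled to G proteins. They were chosen by name from the 12610 genes of a table of normalised read counts, and all 6 were present and among the 9912 genes tested. The RNA came from Drosophila melanogaster larval brains early in the third instar, which were dissociated and sorted by FACS on GFP. The libraries form 4 groups of 3: GFP-positive cells of rfx knock-out (KO) brains, GFP-positive cells of wild-type (WT) brains, GFP-negative cells of KO brains and GFP-negative cells of WT brains. The series describes the sorted cells as expressing Rfx, whose product is a transcription factor of cilium genes, so GFP is taken to mark those cells. The labels name neither the rfx allele nor the transgene that carries GFP, and they do not say whether the libraries of a group came from separate dissections. The p-values therefore refer to the spread between libraries, which may be technical.

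GABA acts through a fast and a slow route. On the fast route it opens a channel of subunits arranged as a ring, and Rdl subunits form chloride channels whose opening reduces the excitability of the neuron. On the slow route it binds GABA-B receptors, in which GABA-B-R1 holds the binding site for GABA and GABA-B-R2 carries the coupling to inhibitory G proteins, so that both are needed for a working receptor.

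Each library held between 20301256 and 29771321 reads over the genes of the table. Values are reads scaled per library so that they resemble CPM, and are called levels below. Rfx, the targeted gene, had levels of 1322, 1035 and 1021 in KO GFP-positive libraries and 2918, 2542 and 2918 in WT GFP-positive libraries. It had 52.3, 52.3 and 54.5 in KO GFP-negative libraries and 73.5, 74.1 and 73.5 in WT GFP-negative libraries. The lower Rfx of KO GFP-positive cells and the higher Rfx of GFP-positive cells therefore go with the labels. The cell type is labelled as neuron in every group, and the summed level of 5 neuronal markers (elav, nSyb, brp, Syt1 and Appl) was 5686 to 7766 in KO GFP-positive, 6488 to 7757 in WT GFP-positive, 2999 to 3725 in KO GFP-negative and 3224 to 3784 in WT GFP-negative libraries. The summed level of 5 neuroblast and progenitor markers (dpn, ase, mira, wor and N) was 29.6 to 40.8 in KO GFP-positive, 27.3 to 31.9 in WT GFP-positive, 1264 to 1442 in KO GFP-negative and 1043 to 1258 in WT GFP-negative libraries. That of 5 glial markers (repo, Eaat1, moody, gcm and nrv2) was 308 to 447 in KO GFP-positive, 289 to 341 in WT GFP-positive, 823 to 943 in KO GFP-negative and 628 to 830 in WT GFP-negative libraries. The markers of hemocytes and of muscle summed to at most 8.94 and 15.0 in any library. The GFP-negative libraries thus hold RNA of progenitors and glia beside that of neurons, which goes against a label of neurons alone. The GFP-positive libraries also held RNA of the glial markers, at the lower sums of 289 to 447. Reads of rRNA genes made up 2.54% of KO GFP-positive replicate 3 and 12.2% of WT GFP-positive replicate 2, and at most 0.976% of any other library.

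Divided by the summed length of their exons in kilobases, the levels of the 6 genes stood in the same order in all 4 groups: GABA-B-R2, Lcch3, Rdl, GABA-B-R1, GABA-B-R3 and Grd. In KO GFP-positive libraries the mean levels per kilobase were 77.3 for GABA-B-R2, 74.6 for Lcch3, 38.2 for Rdl, 19.8 for GABA-B-R1, 5.96 for GABA-B-R3 and 0.197 for Grd. In WT GFP-positive libraries they were 67.3, 65.8, 37.4, 20.7, 4.65 and 0.345, in the same order of genes. GABA-B-R2 and Lcch3 could not be placed one above the other in GFP-positive cells of either genotype, since the ranges of their 3 libraries overlapped. In KO GFP-negative libraries the means per kilobase were 39.5, 30.1, 18.0, 9.67, 3.48 and 0.379, and in WT GFP-negative libraries they were 35.8, 27.5, 20.6, 11.1, 4.43 and 0.482. There GABA-B-R2 stood above Lcch3 without overlap. Lcch3 was divided by all its exon bases, of which 24.0% are shared with Ranbp16 on the opposite strand. How reads over the shared bases were counted is not given, and their effect on the place of Lcch3 in the order was not tested. The ranges of Rdl and GABA-B-R1 overlapped in WT GFP-positive and KO GFP-negative libraries, and no other neighbours in the order overlapped.

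**Figure D1:**
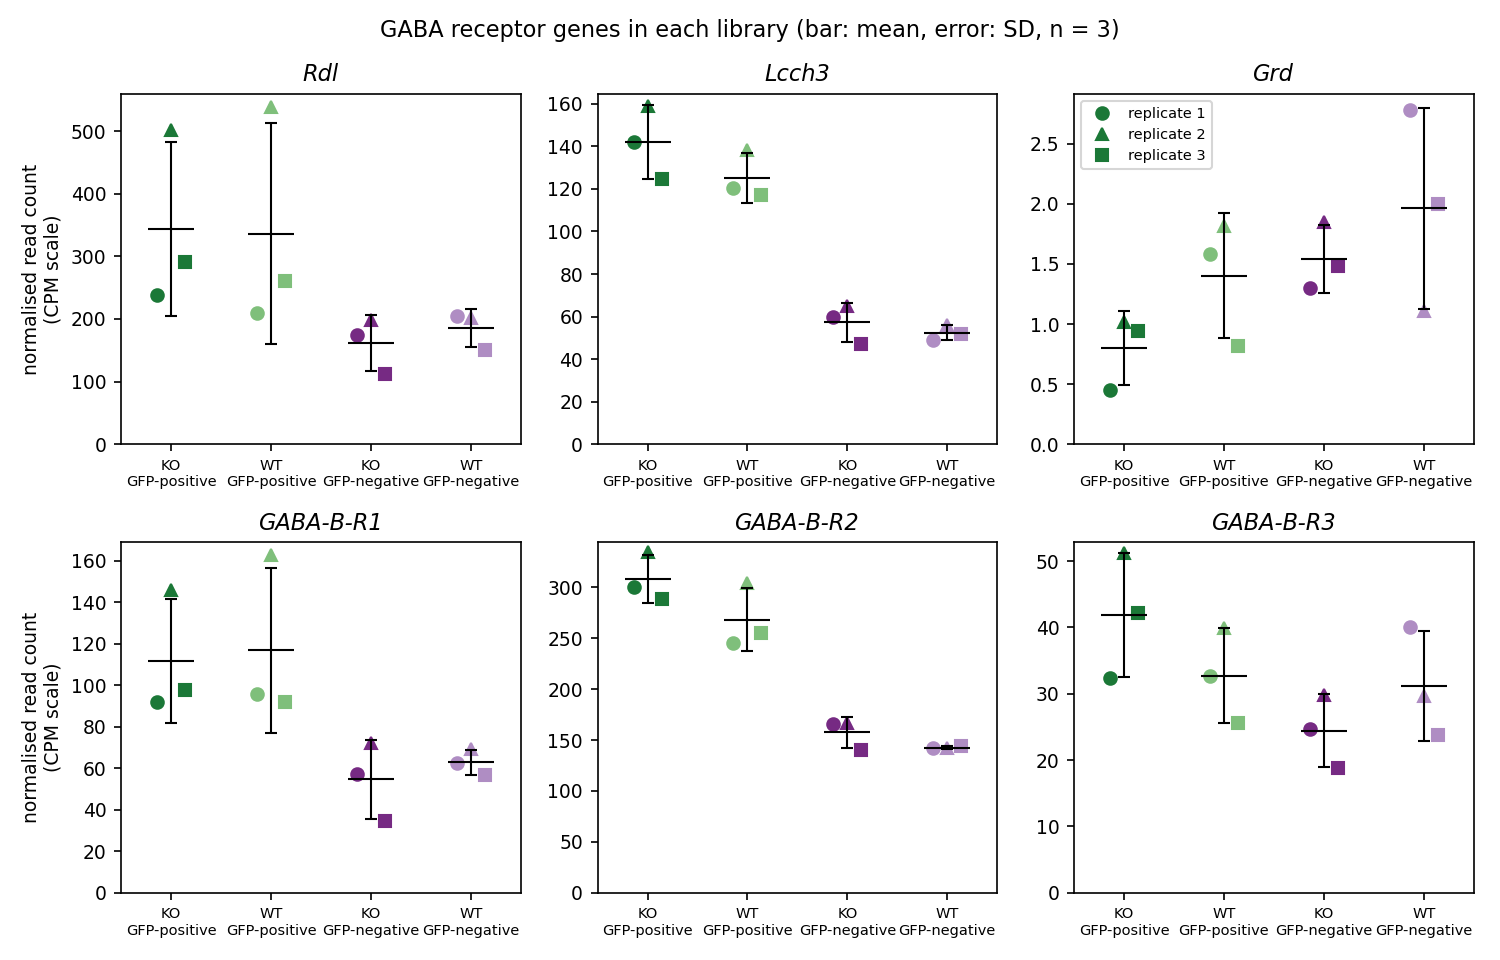
Levels (normalised read counts on the CPM scale) of the 6 GABA receptor genes in each of the 12 libraries, one panel per gene with its own linear axis. Points are libraries with marker shapes for replicates 1, 2 and 3, and horizontal bars with error bars are the mean and SD of 3 libraries. Lcch3 and GABA-B-R2 separate GFP-positive from GFP-negative libraries in both genotypes, whereas the replicate 2 points of Rdl stand at 501 in KO and 539 in WT GFP-positive cells, far above the other libraries.

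Comparing GFP-positive with GFP-negative cells asks how the cells that express Rfx differ in their GABA receptors from the rest of the sorted brain. Lcch3, GABA-B-R2 and GABA-B-R1 were higher in GFP-positive cells of both genotypes, by about the same factor. Rdl and GABA-B-R3 passed the test in KO brains, and Grd passed in neither. No interaction of genotype and GFP was called for Rdl or GABA-B-R3, so their GFP differences were not shown to differ between genotypes. Genes were called where the Benjamini-Hochberg adjusted p of limma, taken over all 9912 genes, was under 0.05. In KO brains 5 of the 6 receptor genes were higher in GFP-positive than in GFP-negative cells and 0 were lower, where 23.6% of all genes tested were higher and 12.9% lower. In WT brains 3 of the 6 were higher and 0 were lower, where 25.7% of all genes tested were higher and 12.3% lower. Without overlap between the libraries, 5 of the 6 were higher and 1 lower in KO brains, where this held for 30.3% and 18.1% of all genes. In WT brains 4 of the 6 were higher and 0 lower without overlap, where this held for 33.0% and 15.2% of all genes. The median log2 difference of the 6 genes was 1.01 in KO brains, against 0.074 for all genes, and 0.79 in WT brains, against 0.087 for all genes. In WT brains 2550 genes were higher and 1215 lower with the deposited scaling, and 2244 were higher and 1685 lower after quantile normalisation of the same genes, so the balance of directions over all genes changed with the scaling. DESeq2, which differs from limma in its model and in the genes it tests as well as in its scaling, gave 1999 higher and 1609 lower and a median log2 difference of -0.14 over all genes. Relative to the median of each method Lcch3 was higher by 1.15 with limma and 1.30 with DESeq2 in log2.

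Rdl (FBgn0004244; 3L, 9145838 to 9182149, minus strand) encodes the subunit that forms GABA-gated chloride channels on its own and is the target of the insecticide dieldrin. Its levels were 238, 501 and 291 in KO GFP-positive libraries and 174, 198 and 112 in KO GFP-negative libraries, in the order of replicates 1, 2 and 3. They were 210.3, 539 and 260.1 in WT GFP-positive libraries and 204, 202 and 151 in WT GFP-negative libraries. In both genotypes each GFP-positive library was above each GFP-negative one, but replicate 1 of the WT groups differed hardly at all and replicate 2 gave the highest value of both GFP-positive groups. Rdl was 2.13-fold higher in KO GFP-positive than in KO GFP-negative cells (log2 difference 1.05, SE 0.34, limma adjusted p = 0.0306). In WT brains it was 1.81-fold higher on average but did not pass (log2 difference 0.75, SE 0.34, limma adjusted p = 0.108). With a replicate block of adjacent title numbers in the fit, an alternative, it passed there (limma adjusted p = 0.0120). The KO call was lost without KO GFP-positive replicate 2, KO GFP-negative replicate 1 or KO GFP-negative replicate 3, with limma adjusted p up to 0.134. The WT log2 difference was 0.35 without WT GFP-positive replicate 2 (limma adjusted p = 0.418) and 1.02 without WT GFP-positive replicate 1, where it passed (limma adjusted p = 0.0466). On sequencing lane 6 the WT log2 difference of Rdl was 1.10 over 2 libraries in each group, and on lane 7 it was 0.041 with 1 library in each.

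Lcch3 (FBgn0010240; X, 15925105 to 15928529, plus strand) encodes a subunit related to vertebrate GABA-A beta subunits. When expressed in frog oocytes or cell lines, it has been found to form channels with Rdl or, with Grd, channels that pass cations. Its levels were 142, 159 and 125 in KO GFP-positive libraries and 59.8, 64.8 and 47.3 in KO GFP-negative libraries. They were 120.2, 138 and 117 in WT GFP-positive libraries and 49.2, 56.1 and 51.6 in WT GFP-negative libraries. The lowest GFP-positive library stood far above the highest GFP-negative one in both genotypes. Lcch3 was 2.48-fold higher in KO GFP-positive than in KO GFP-negative cells (log2 difference 1.30, SE 0.13, limma adjusted p = 8.72e-06) and 2.39-fold higher in WT GFP-positive than in WT GFP-negative cells (log2 difference 1.24, SE 0.13, limma adjusted p = 1.19e-05). No library decided these calls: leaving out each in turn kept the log2 difference between 1.17 and 1.39 in KO and between 1.17 and 1.29 in WT brains.

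The kit keeps no strand, and 24.0% of the exon bases of Lcch3, 456 in all, are shared with Ranbp16, a gene on the opposite strand that encodes a nuclear transport protein. Reads of the pair over these bases cannot be assigned to either. Ranbp16 averaged 199.7 in KO GFP-positive, 196 in WT GFP-positive, 155 in KO GFP-negative and 155 in WT GFP-negative libraries, so it was higher in GFP-positive cells by 1.29-fold in KO and 1.26-fold in WT brains (limma adjusted p = 0.00939 and 0.0132). A further 140 exon bases of Lcch3 are shared with asRNA:CR45000, which averaged at most 0.437 in any group. The gene CG8916, which lies next to Lcch3 on the same strand and encodes another predicted channel subunit of the family, averaged 1.76 in KO GFP-positive, 1.91 in WT GFP-positive, 1.36 in KO GFP-negative and 2.02 in WT GFP-negative libraries, with no call in any comparison.

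Grd (FBgn0001134; 3L, 17823333 to 17839767, plus strand) encodes a subunit resembling both GABA and glycine receptors. It was close to the limit of detection, with 12, 26 and 24 reads in KO GFP-positive, 44, 39 and 22 in WT GFP-positive, 42, 52 and 34 in KO GFP-negative and 70, 26 and 53 in WT GFP-negative libraries. Its levels were 0.449, 1.02 and 0.940 in KO GFP-positive libraries and 1.30, 1.85 and 1.48 in KO GFP-negative libraries. In KO brains the GFP-positive libraries all lay below the GFP-negative ones, but the difference did not pass (log2 difference -0.51, SE 0.25, limma adjusted p = 0.141). The pseudocount of 1 shrinks a log2 difference at such levels, since the ratio of means was 0.521. In WT brains Grd had levels of 1.58, 1.81 and 0.817 in GFP-positive libraries and 2.78, 1.11 and 1.99 in GFP-negative libraries. These groups overlapped, with a log2 difference of -0.29 (SE 0.25, limma adjusted p = 0.394). Of its exon bases 27.5% are shared with CG5577 on the opposite strand, which averaged 1.37 in KO GFP-positive, 1.31 in WT GFP-positive, 0.463 in KO GFP-negative and 0.551 in WT GFP-negative libraries.

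GABA-B-R1 (FBgn0260446; 2L, 15016331 to 15034704, plus strand) encodes the GABA-binding partner of the metabotropic receptor. Its levels were 91.6, 146 and 97.5 in KO GFP-positive libraries and 57.4, 71.9 and 34.4 in KO GFP-negative libraries. They were 96.0, 163 and 91.8 in WT GFP-positive libraries and 62.4, 69.1 and 56.8 in WT GFP-negative libraries. The GFP-positive libraries were all above the GFP-negative ones of their genotype, and replicate 2 was the highest in every group. GABA-B-R1 was 2.05-fold higher in KO GFP-positive than in KO GFP-negative cells (log2 difference 1.05, SE 0.27, limma adjusted p = 0.00952) and 1.86-fold higher in WT GFP-positive than in WT GFP-negative cells (log2 difference 0.84, SE 0.27, limma adjusted p = 0.0288). The WT call was lost without WT GFP-positive replicate 2 (limma adjusted p = 0.125), WT GFP-negative replicate 1 (0.0675) or WT GFP-negative replicate 3 (0.0896), and with quantile normalisation (0.0569).

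GABA-B-R2 (FBgn0027575; 3R, 21770333 to 21775840, minus strand) encodes the partner that couples to G proteins. Its levels were 301, 335 and 289 in KO GFP-positive libraries and 166, 167 and 140.3 in KO GFP-negative libraries. They were 246, 304 and 255 in WT GFP-positive libraries and 142, 142 and 144 in WT GFP-negative libraries. No GFP-positive library came near a GFP-negative one, and the libraries of a group lay close together. GABA-B-R2 was 1.96-fold higher in KO GFP-positive than in KO GFP-negative cells (log2 difference 0.96, SE 0.11, limma adjusted p = 1.73e-05) and 1.88-fold higher in WT GFP-positive than in WT GFP-negative cells (log2 difference 0.90, SE 0.11, limma adjusted p = 2.94e-05). Without each library in turn the log2 difference lay between 0.88 and 1.01 in KO and between 0.81 and 0.96 in WT brains.

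GABA-B-R3 (FBgn0031275; 2L, 749945 to 762399, plus strand) encodes an insect receptor of the same family whose function is less well known. Its levels were 32.4, 51.2 and 42.1 in KO GFP-positive libraries and 24.8, 29.8 and 18.8 in KO GFP-negative libraries. They were 32.7, 39.9 and 25.6 in WT GFP-positive libraries and 40.1, 29.7 and 23.7 in WT GFP-negative libraries. The KO groups stood apart from each other and the WT groups overlapped. GABA-B-R3 was 1.71-fold higher in KO GFP-positive than in KO GFP-negative cells (log2 difference 0.75, SE 0.24, limma adjusted p = 0.0247), and in WT brains the log2 difference was 0.077 (SE 0.24, limma adjusted p = 0.817). The test of whether the GFP difference itself differed between genotypes gave a log2 of 0.68 (SE 0.33, 95% interval -0.047 to 1.40, limma adjusted p = 0.9998, unadjusted p = 0.0645), so the 2 genotypes were not shown to differ. The KO call was lost without KO GFP-positive replicate 2 or 3 or without KO GFP-negative replicate 1 or 3, with limma adjusted p between 0.0526 and 0.109.

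**Figure D2:**
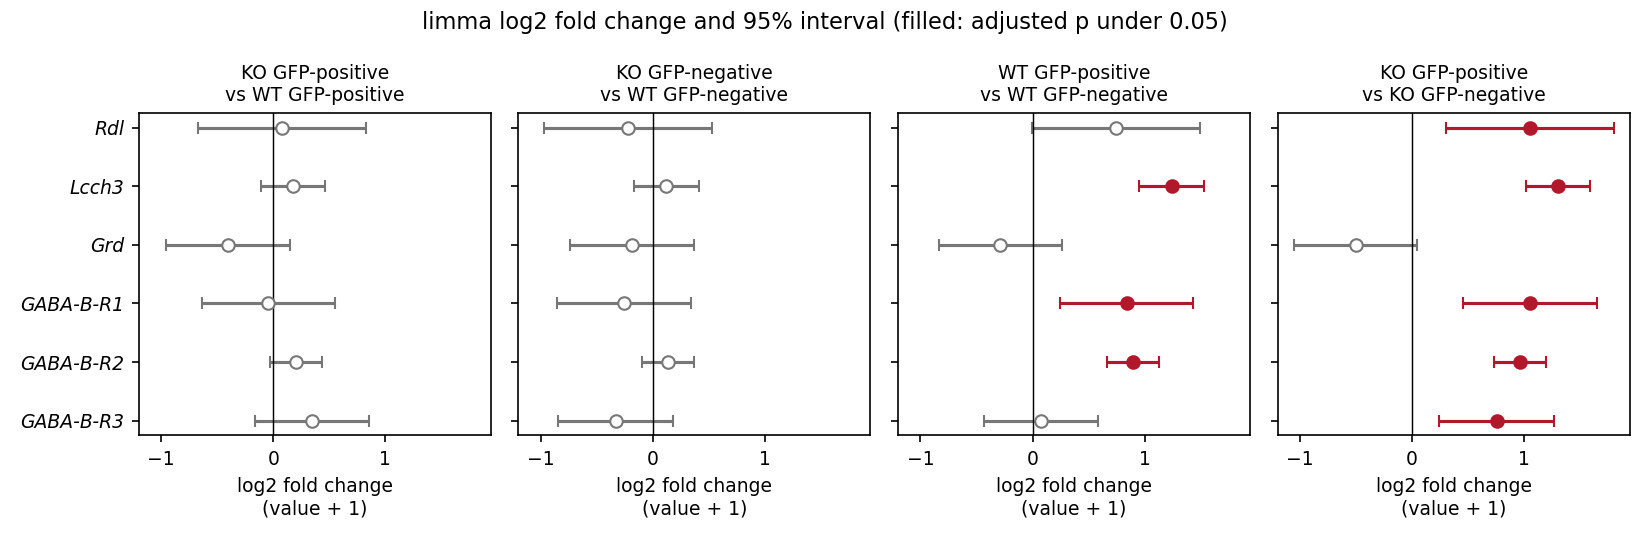
Log2 differences of the 6 GABA receptor genes in the 4 pairwise comparisons, each as the first group minus the second on the log2(level + 1) scale, with 95% intervals from limma and filled symbols for adjusted p under 0.05. Filled symbols stand in the GFP comparisons alone, 5 in KO and 3 in WT brains, and the intervals of both genotype comparisons include 0 for all 6 genes.

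In bulk RNA, more cells that carry a transcript and more transcript per cell cannot be told apart. The 4 neuronal markers nSyb, Syt1, brp and Appl were themselves 2.11-fold to 2.49-fold higher in KO GFP-positive than in KO GFP-negative cells, and 1.61-fold to 2.39-fold higher in WT GFP-positive than in WT GFP-negative cells. The fifth, elav, was not called in either genotype, with a mean level of 596 in KO GFP-positive and 628 in KO GFP-negative libraries, and of 584 in WT GFP-positive and 659 in WT GFP-negative libraries. All 5 neuroblast and progenitor markers and 3 of the 5 glial markers were lower in GFP-positive cells of both genotypes. Scaled to the mean log2 level of the 5 neuronal markers, a choice made after the data were seen, Lcch3 was higher in WT GFP-positive than in WT GFP-negative cells by a log2 difference of 0.47 (limma adjusted p = 0.0311). On that scale GABA-B-R3 and Grd were lower there, by log2 differences of -0.69 and -1.06 (limma adjusted p = 0.00953 and 0.0138). In KO brains Grd alone passed, with a log2 difference of -1.43 (limma adjusted p = 0.00149), and Lcch3 did not (0.38, limma adjusted p = 0.0618). On that scale most genes were called lower: of 9912 tested, 7024 were lower and 229 higher in KO GFP-positive cells. In WT GFP-positive cells 5556 were lower and 281 higher. This scaling moves the median of all genes to -0.85 in KO and -0.68 in WT brains. Relative to those medians Grd stood at -0.58 in KO and -0.37 in WT brains, and GABA-B-R3 at 0.68 in KO and -0.011 in WT brains. These values equal those of the deposited scaling relative to its own medians, since all genes of a library are shifted alike.

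KO GFP-positive and WT GFP-positive cells were compared to ask what changes without rfx in the cells that normally express it. No GABA receptor gene passed: 0 of the 6 were called, where 3.07% of all genes tested were called in either direction. At an unadjusted p under 0.05 limma gave 0 of the 6 as well, against 10.2% of all genes, and edgeR and DESeq2 on the recovered reads called 0. The KO and WT libraries overlapped for each of the 6 genes. Of all genes tested 14.1% did not overlap, a share at which 6 genes are too few to stand apart. The precision differed between genes, and the closest to the threshold was GABA-B-R2, which was higher in KO GFP-positive cells by a log2 difference of 0.20 (SE 0.11, 95% interval -0.029 to 0.43, limma adjusted p = 0.629). For Lcch3 the log2 difference was 0.18, with a 95% interval from -0.11 to 0.47, and for GABA-B-R3 it was 0.35, from -0.17 to 0.86. For GABA-B-R1 it was -0.045, from -0.64 to 0.55, and for Grd it was -0.41, from -0.96 to 0.15. Rdl had a log2 difference of 0.080 with the widest interval of the high genes, from -0.67 to 0.83, so that a change of 1.77-fold higher or 0.629-fold in KO GFP-positive cells could not be told from none. The limma adjusted p of these 5 genes lay between 0.764 and 0.994. Lane is partly confounded with genotype, because the third replicates of KO were sequenced on lane 7 and those of WT on lane 6. The KO minus WT log2 difference of GABA-B-R2 was 0.27 on lane 6 and 0.26 on lane 7, while that of GABA-B-R1 was 0.25 on lane 6 and -0.021 on lane 7.

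KO GFP-negative and WT GFP-negative cells were compared in the same way, as the genotype difference in cells sorted as free of GFP. Of the 6 receptor genes 0 were called, where 0.686% of all genes tested were called in either direction, and 0 had an unadjusted p under 0.05 with limma, against 8.04% of all genes. edgeR and DESeq2 also called 0. The log2 differences were 0.14 for GABA-B-R2, 0.12 for Lcch3, -0.19 for Grd, -0.22 for Rdl, -0.26 for GABA-B-R1 and -0.33 for GABA-B-R3, with limma adjusted p between 0.735 and 0.857. The libraries of the groups overlapped for each of the 6. Of all genes tested 16.1% did not overlap, so here too 6 genes are too few to stand apart. On lane 7 alone GABA-B-R3 had a log2 difference of -0.86 with 2 KO libraries and 1 WT library, and on lane 6 it had 0.16 with 1 KO and 2 WT libraries. The genotype by GFP interaction called 0 of the 6, where 0.555% of all genes tested were called. At an unadjusted p under 0.05 it gave 0 with limma, against 3.91% of all genes, and edgeR and DESeq2 called 0. Its log2 values were 0.68 for GABA-B-R3, 0.30 for Rdl, 0.21 for GABA-B-R1, 0.065 for GABA-B-R2, 0.058 for Lcch3 and -0.22 for Grd. The pairwise comparisons share groups of libraries, so their values for a gene are not independent of each other.

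Over the 4 groups, the order of group means was KO GFP-positive, WT GFP-positive, KO GFP-negative and WT GFP-negative for Lcch3 and GABA-B-R2. For Rdl the GFP-negative groups stood in the opposite order, and for GABA-B-R1 both pairs did. In these 4 genes the one step without overlap was that between the lower GFP-positive and the higher GFP-negative group. GABA-B-R3 was highest in KO GFP-positive cells and lowest in KO GFP-negative cells, and Grd was highest in WT GFP-negative cells and lowest in KO GFP-positive cells. For those 2 genes each group overlapped with the next.

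Among the replicates, the genes differed in how far replicate 2 departed from the other libraries of its group. Replicate 2 of all 4 groups carries adjacent numbers in the sample titles and was sequenced on lane 6. Rdl in replicate 2 was 1.89 times the mean of replicates 1 and 3 in KO GFP-positive, 2.29 times in WT GFP-positive, 1.39 times in KO GFP-negative and 1.14 times in WT GFP-negative cells. GABA-B-R1 showed ratios of 1.54 in KO GFP-positive, 1.73 in WT GFP-positive, 1.57 in KO GFP-negative and 1.16 in WT GFP-negative cells. Both genes thus departed least in WT GFP-negative cells. Lcch3 kept to ratios between 1.11 and 1.21 in the 4 groups and GABA-B-R2 to ratios between 0.994 and 1.21. Over 7101 genes with a mean level of at least 5 the median ratio was 1.04, 1.06, 1.05 and 1.11 in the groups in the order given, and 5% of those genes were above 1.73, 1.83, 1.64 and 1.39. The ratio of Rdl was above that bound in both GFP-positive groups. The synaptic vesicle gene Syt1 had ratios of 1.78, 2.05, 1.74 and 1.22, and kcc, which encodes the potassium chloride cotransporter that sets the chloride gradient of neurons, had 2.01, 2.52, 2.10 and 1.30. The neuronal marker elav had 1.02, 1.23, 0.909 and 1.11, so the neuronal markers did not depart together. WT GFP-positive replicate 2 is also the library with the largest rRNA share, whose part in these ratios was not tested.

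**Figure D3:**
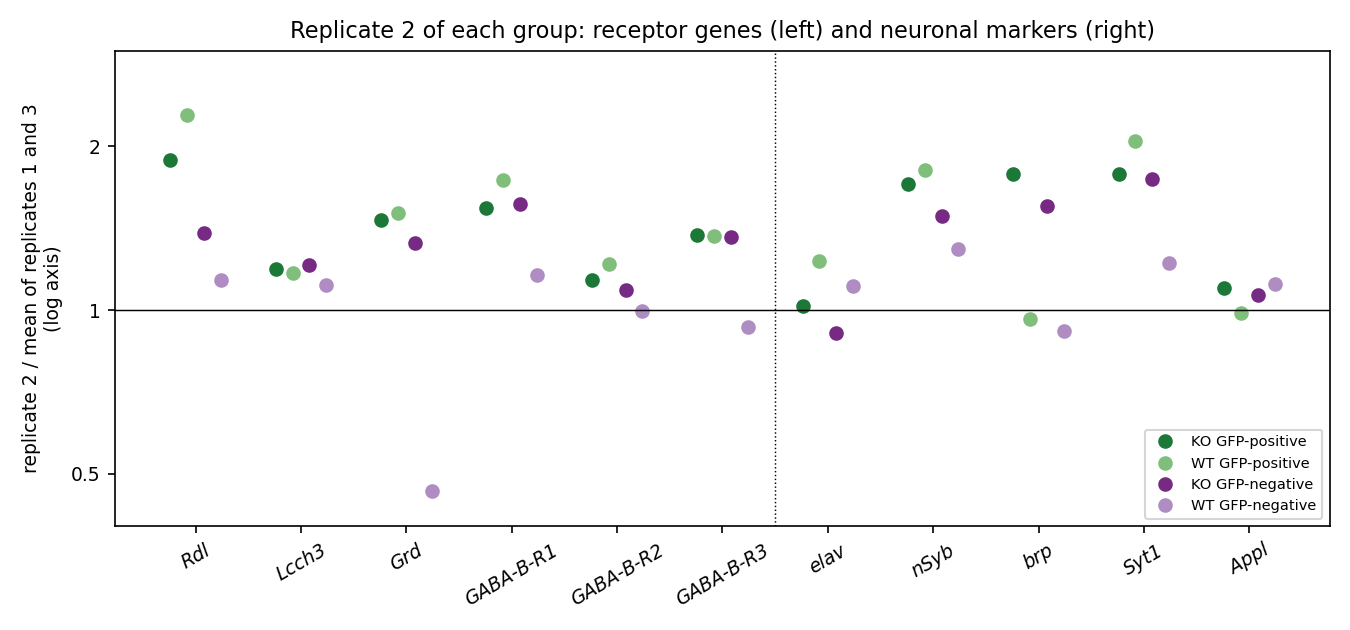
Ratio of the level in replicate 2 to the mean of replicates 1 and 3, on a log axis, for the 6 GABA receptor genes and for 5 neuronal markers in each of the 4 groups. Rdl reaches 1.89 in KO and 2.29 in WT GFP-positive cells, next to Syt1 at 1.78 and 2.05, whereas Lcch3 and GABA-B-R2 stay between 0.994 and 1.21 in the 4 groups.

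Because receptors are assembled from more than 1 gene product, the ratio of partners was compared within each library. The tests used log2 ratios with 1 added to each level, in which scaling between libraries nearly cancels, though less so for Grd. The ratios per kilobase were taken without that addition. Each ratio was tested by exact two-sided permutation of libraries, within genotype for the GFP contrast and within GFP class for the genotype contrast, over 400 arrangements with a smallest possible p of 0.005. None of the 6 tests passed after Benjamini-Hochberg adjustment over the 6. The ratio of GABA-B-R1 to GABA-B-R2 per kilobase was 0.254 ± 0.0481 in KO GFP-positive, 0.303 ± 0.0660 in WT GFP-positive, 0.241 ± 0.0658 in KO GFP-negative and 0.311 ± 0.0326 in WT GFP-negative libraries (SD, n = 3). The binding partner was therefore the less abundant of the pair in each of the 12 libraries, and the ratio hardly moved with GFP (log2 difference 0.013, exact permutation p = 0.955, adjusted 0.955). It was lower in KO than in WT libraries by a log2 difference of -0.32 (exact permutation p = 0.080, adjusted 0.24), which did not pass.

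The ratio of Lcch3 to Rdl per kilobase was 2.12 ± 0.664 in KO GFP-positive, 2.01 ± 0.749 in WT GFP-positive, 1.72 ± 0.238 in KO GFP-negative and 1.36 ± 0.245 in WT GFP-negative libraries (SD, n = 3). Per kilobase it was above 1 in each of the 12 libraries, whereas without division by exon length it ran from 0.241 to 0.597. Which transcripts of either gene were expressed was not tested. The effect of the exon bases that Lcch3 shares with Ranbp16 on the ratio per kilobase was not tested either. The GFP contrast had a log2 difference of 0.37 (exact permutation p = 0.145, adjusted 0.29) and the genotype contrast 0.22 (exact permutation p = 0.355, adjusted 0.532). The ratio of Grd to Rdl per kilobase was 0.00526 in KO GFP-positive, 0.0103 in WT GFP-positive, 0.0221 in KO GFP-negative and 0.0238 in WT GFP-negative libraries. It was lower in GFP-positive than in GFP-negative libraries by a log2 difference of -1.29 (exact permutation p = 0.010), which after adjustment stood just outside the threshold at 0.06. The difference was -1.56 in KO and -1.03 in WT brains. With 1 added to each level, the larger part came from Rdl, which differed by log2 1.05 in KO and 0.75 in WT brains. Grd, with its few reads, differed by -0.51 and -0.29, values that the addition shrinks. With edgeR on recovered reads the parts were closer in KO brains, at -0.94 for Grd and 1.09 for Rdl. In WT brains they were -0.49 for Grd and 0.86 for Rdl.

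**Figure D4:**
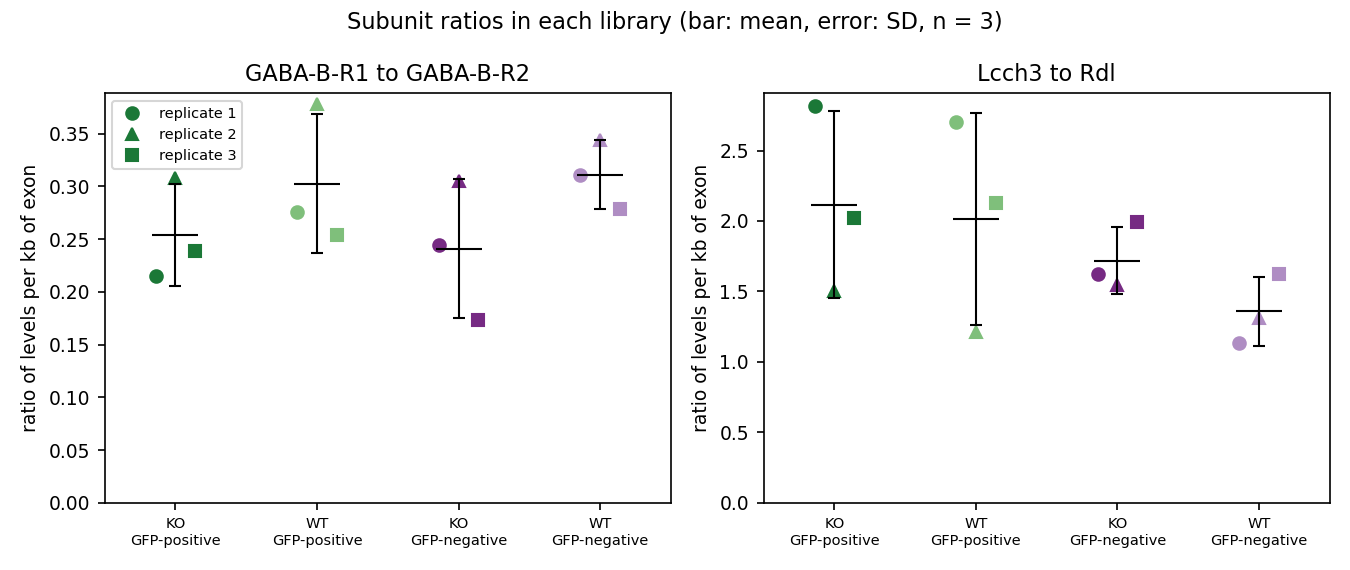
Ratios of levels per kilobase in each library, on linear axes from 0, for GABA-B-R1 to GABA-B-R2 on the left and Lcch3 to Rdl on the right. Symbols are libraries by replicate, and bars with error bars are the mean and SD of 3 libraries. GABA-B-R1 to GABA-B-R2 averages 0.241 to 0.311 in the 4 groups, and the replicate 2 libraries of the GFP-positive groups have the lowest Lcch3 to Rdl ratios of their groups.

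Of 6 genes that make, carry and break down GABA, 3 were higher in KO GFP-positive than in KO GFP-negative cells and 0 lower, with a median log2 difference of 0.73, where 23.6% of all genes tested were higher and 12.9% lower. In WT brains 3 were higher and 1 lower in GFP-positive than in GFP-negative cells, with a median of 0.47, where 25.7% of all genes were higher and 12.3% lower. These shares of all genes also stand behind the counts of the other 4 lists. The 3 called higher in both were Gabat, the transaminase that breaks down GABA, Gat, the plasma membrane transporter that takes it up, and VGAT, which loads it into vesicles. Gabat averaged 349.8 in KO GFP-positive and 126 in KO GFP-negative libraries, and 313 in WT GFP-positive and 123 in WT GFP-negative libraries. VGAT averaged 144 in KO GFP-positive and 76.1 in KO GFP-negative libraries, and 104 in WT GFP-positive and 73.8 in WT GFP-negative libraries. Its WT call was lost under 6 of 24 alternatives and its difference changed sign under 1. Among those 6 were quantile normalisation, DESeq2 and leaving out WT GFP-positive replicate 2 or WT GFP-negative replicate 1 or 3, with adjusted p up to 0.0992. Gad1, the glutamate decarboxylase that makes GABA, was the one lower in WT GFP-positive cells and the one gene of the 5 lists described here that was called between KO GFP-positive and WT GFP-positive cells. Its levels were 318, 556 and 256 in KO GFP-positive libraries and 19.3, 31.5 and 14.0 in WT GFP-positive libraries. Beside that difference in the gene for GABA synthesis, the 6 receptor genes had log2 differences from -0.41 to 0.35 in the same cells, none of them called.

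Other genes for ligand-gated chloride channels were tested for 7 of 9, since ort and pHCl-2 were too low. In KO brains 3 were higher in GFP-positive than in GFP-negative cells and 0 lower, and in WT brains 2 were higher and 0 lower. GluClalpha, a glutamate-gated chloride channel, averaged 471 in KO GFP-positive and 162 in KO GFP-negative libraries, and 486 in WT GFP-positive and 157 in WT GFP-negative libraries. The log2 difference was 1.53 in KO and 1.59 in WT brains (limma adjusted p = 0.000241 and 0.000157). HisCl1, a histamine-gated channel, was at 9.20 in KO GFP-positive and 2.19 in KO GFP-negative libraries, and at 8.03 in WT GFP-positive and 2.30 in WT GFP-negative libraries. SecCl, the third gene higher in KO brains, averaged 6.35 in KO GFP-positive and 3.65 in KO GFP-negative libraries. That call was lost without KO GFP-positive replicate 2 or KO GFP-negative replicate 1 or 3 (limma adjusted p = 0.0799, 0.0669 and 0.0773).

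The effect of opening a chloride channel depends on the chloride gradient, which cotransporters set. Of 4 chloride transporter genes 1 was higher and 1 lower in GFP-positive than in GFP-negative cells of both genotypes. The one lower was Ncc69, a sodium-coupled chloride importer, at 12.9 in KO GFP-positive and 105 in KO GFP-negative libraries, and at 15.7 in WT GFP-positive and 82.5 in WT GFP-negative libraries. Its relative NKCC was the one higher, at 23.2 in KO GFP-positive and 7.05 in KO GFP-negative libraries, and at 28.9 in WT GFP-positive and 7.17 in WT GFP-negative libraries. Its levels spread widely, at 33.3, 28.3 and 8.15 in KO GFP-positive and 28.3, 45.2 and 13.2 in WT GFP-positive libraries. Its KO call was lost under 7 of 24 alternatives, among them leaving out KO GFP-positive replicate 1 or 2 or KO GFP-negative replicate 1 or 3 (limma adjusted p up to 0.144), and its WT call under 2, one of them without WT GFP-positive replicate 2 (limma adjusted p = 0.0651). The exporter kcc was not called in any comparison, with 309 in KO GFP-positive, 275 in WT GFP-positive, 204 in KO GFP-negative and 225 in WT GFP-negative libraries. Glia also express chloride importers, and the lower glial markers of GFP-positive cells were given above. Their part in the values of Ncc69 was not tested.

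Downstream of GABA-B receptors, 8 genes of inhibitory G proteins and inwardly rectifying potassium channels were tested. In KO brains 3 were higher and 2 lower in GFP-positive than in GFP-negative cells, and in WT brains 3 were higher and 1 lower. The 2 inhibitory alpha subunits went opposite ways. Galphao averaged 1797 in KO GFP-positive and 831 in KO GFP-negative libraries, and 1776 in WT GFP-positive and 796 in WT GFP-negative libraries. Galphai averaged 9.16 in KO GFP-positive and 271 in KO GFP-negative libraries, and 8.02 in WT GFP-positive and 226 in WT GFP-negative libraries. Galphai is also known for its role in the asymmetric division of neuroblasts, whose markers were lower in GFP-positive cells in the same way, and their part in its values was not tested. The beta subunit genes Gbeta13F and Gbeta5 were the other 2 that were higher in both genotypes. The potassium channel gene Irk1 was low throughout, at 1.57 in KO GFP-positive and 3.15 in KO GFP-negative libraries, and it was the second gene called lower in KO brains (limma adjusted p = 0.0328). That call was lost under 7 of 23 alternatives, among them edgeR and leaving out KO GFP-positive replicate 1 or KO GFP-negative replicate 1 or 3, with adjusted p up to 0.134. Of the exon bases of Irk1 61.0% are shared with CG46310 on the same strand in the annotation used here. CG46310 is not among the genes of the table of normalised read counts. How reads over the shared bases were counted is not given, so they may come from either gene.

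Of 6 genes for neuroligins, neurexin and RNA editing, 4 were higher in KO GFP-positive than in KO GFP-negative cells and 2 were higher in WT GFP-positive than in WT GFP-negative cells, with 0 lower in either. Nlg2, an adhesion protein of the postsynaptic side, averaged 374 in KO GFP-positive and 116 in KO GFP-negative libraries, and 369 in WT GFP-positive and 101 in WT GFP-negative libraries. Adar, the enzyme that edits adenosines in transcripts of Rdl and other channel genes, averaged 219.7 in KO GFP-positive and 179.9 in KO GFP-negative libraries, and 205 in WT GFP-positive and 166 in WT GFP-negative libraries. It was thus 1.22-fold higher in KO and 1.23-fold higher in WT GFP-positive cells (limma adjusted p = 0.0442 and 0.0367), calls that were lost under 14 alternatives in KO and 10 in WT brains. Levels of a transcript do not show how much of it is edited. In KO GFP-positive against WT GFP-positive cells, 0 genes of the chloride channel, chloride transporter, G protein and synapse lists were called, and in KO GFP-negative against WT GFP-negative cells 0 genes of the 5 lists were called.

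**Figure D5:**
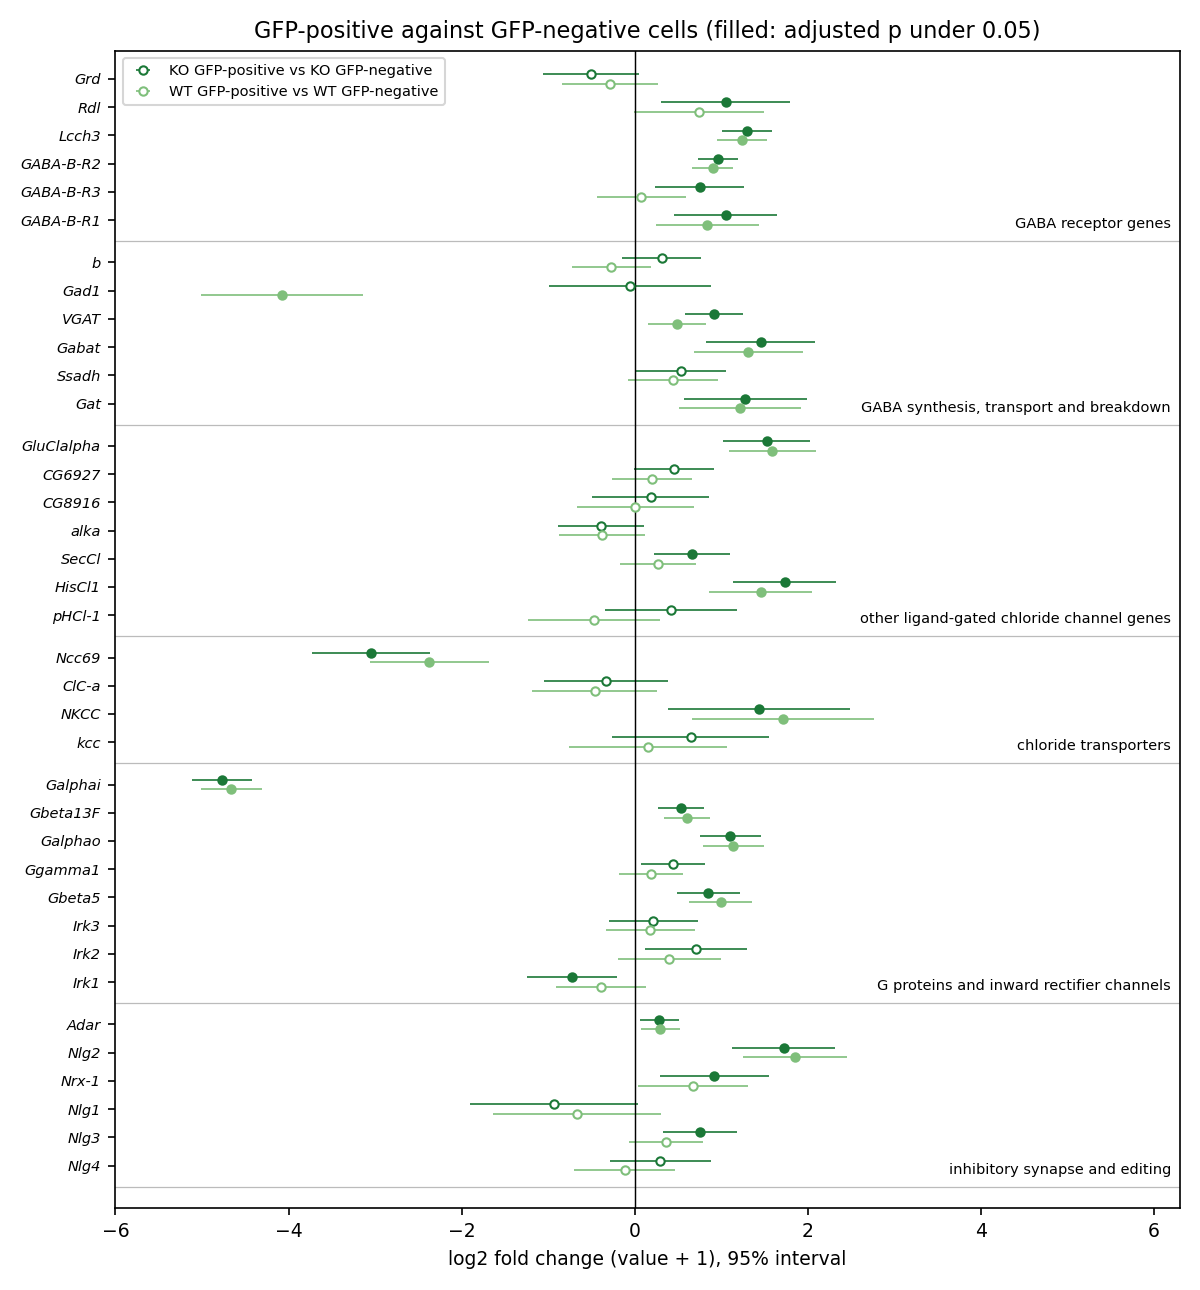
Log2 differences on the log2(level + 1) scale with 95% intervals from limma for the receptor genes and the tested genes of the 5 lists, KO GFP-positive against KO GFP-negative cells in dark green and WT GFP-positive against WT GFP-negative cells in light green, with filled symbols for adjusted p under 0.05. Most pairs of symbols lie close together, whereas Gad1 stands at -0.052 in KO and -4.08 in WT brains, and Galphai stands far to the left in both, at -4.77 and -4.66.

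The genes whose levels ran most alike those of each receptor gene were taken by Pearson correlation of log2(level + 1) over the 12 libraries, among 7100 other named genes with a mean level of at least 5. These correlations are descriptions, since the libraries fall into GFP classes that many genes separate and share their sequencing lanes. For Lcch3 the 3 highest were Nt5b (r = 0.996), tau, which encodes a microtubule-associated protein of axons (r = 0.994), and nAChRalpha4, a nicotinic acetylcholine receptor subunit (r = 0.994). For GABA-B-R2 the highest was Lcch3 itself (r = 0.993), followed by CG12594 and CG33144 (r = 0.991 each). For GABA-B-R1 they were CG2201 (r = 0.992), Syt1 (r = 0.991) and CG14186 (r = 0.989), and for Rdl they were gammaSnap2, CG14186 and unc-13-4A (r = 0.975 each). CG14186, found for both Rdl and GABA-B-R1, averaged 296 in KO GFP-positive, 274 in WT GFP-positive, 121 in KO GFP-negative and 144 in WT GFP-negative libraries. For GABA-B-R3 they were shakB, a gap junction gene (r = 0.959), Shawl, a voltage-gated potassium channel gene (r = 0.954), and CG14082 (r = 0.951). shakB averaged 44.4 in KO GFP-positive, 31.7 in WT GFP-positive, 24.2 in KO GFP-negative and 31.5 in WT GFP-negative libraries, the same order of groups as GABA-B-R3. For Grd, with its few reads, the highest were CG11593 (r = 0.856), lncRNA:CR31781 (r = 0.845) and Fhos (r = 0.841).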

How the data were processed

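Per the labels' protocols, 4 ng of RNA went into each of the 12 libraries, which were made by the SMARTer Ultra Low method followed by Nextera. Per the submitters' processing notes, the tools were HTSeq 0.6.1, TopHat2 2.0.13 and edgeR 3.10.5 with build BDGP6, their roles not being given. Within a library the authors' deposited signal moves in steps of a single read for 100% of entries (tolerance 0.001), from which whole reads were recovered. The deposited values were tested as log2(value + 1) with limma-trend (limma 3.58.1, R 4.3.3) in one fit of 12 libraries and 4 group means, two-sided, for 9912 genes with a value of at least 1 in at least 3 libraries. A fold is a ratio of group means. edgeR 4.0.16 and DESeq2 1.42.0 on recovered reads were alternatives, and edgeR's floor of 10 reads in 3 libraries removed no gene. Names, positions and exon lengths came from the BDGP6.54 annotation, in which 12389 of 12610 identifiers were found. Replicate numbers follow the order of deposition. Named genes were the 6 receptors, Rfx, members of 5 pathway lists and the 3 genes most alike each receptor. The genes overlapping Lcch3 and Grd were added after their positions were seen. The members and the lists were chosen with earlier results of these data known.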

Additional observations from a re-analysis of the deposited data

Results flagged for a closer look

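Rfx and Gad1, which are not receptor genes, differed between the sorted populations in the test of the genotype by GFP interaction. For Rfx the knock-out difference was larger in GFP-positive than in GFP-negative cells, with an interaction log2 of -0.85 (limma adjusted p = 0.0236). That call was lost under 13 of 23 alternatives, each with the same direction. They include quantile normalisation (adjusted p = 0.212) and leaving out any 1 library other than KO GFP-positive replicate 1 or WT GFP-positive replicate 2 (adjusted p = 0.0524 to 0.0846). For Gad1 the interaction log2 was 4.02 (limma adjusted p = 0.00835), since its mean level was 377 in KO GFP-positive and 21.6 in WT GFP-positive cells, against 423 in KO GFP-negative and 366 in WT GFP-negative cells. None of the 6 receptor genes was among the interactions called.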

How the results depend on the processing

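The 0 calls among the 6 receptor genes held in KO GFP-positive against WT GFP-positive cells, in KO GFP-negative against WT GFP-negative cells and for the interaction under each alternative run. Of 709 recomputed values of single receptor genes, 654 kept direction and side of the threshold, 20 lost a call, 4 gained one and 31 changed sign. For WT GFP-positive against WT GFP-negative cells the count of 3 stayed between 2 and 4 without each library in turn. GABA-B-R1 was also lost there with both rRNA-rich libraries left out (adjusted p = 0.134). Rdl was gained with a replicate block of adjacent title numbers (limma adjusted p = 0.0120, 4 calls), which changed no other call of a receptor gene. With that block GABA-B-R2 had an unadjusted p of 0.0459 in KO GFP-positive against WT GFP-positive cells (limma adjusted p = 0.339). Deviations from group means correlated above 0.1 in 15 of 18 pairs of libraries from the same run of numbers, with a range from -0.34 to 0.60, and in 5 of 36 other pairs, with a range from -0.57 to 0.48. The 6 pairs among the replicate 2 libraries lay between 0.36 and 0.60, and 10 of the 12 libraries correlated best with one of their own run. Since 3 of the 18 pairs fell short, and no label ties the numbers to a dissection or day, they were not taken as pairing, although the libraries of a run partly deviated together. Over all genes the replicate block raised the calls between KO GFP-positive and WT GFP-positive cells from 173 higher and 131 lower to 288 and 187. Interactions called rose from 28 higher and 27 lower to 54 and 47. For KO GFP-positive against KO GFP-negative cells the count of 5 stayed between 3 and 5 without each library in turn. It lost Rdl with quantile normalisation (adjusted p = 0.0619) and GABA-B-R3 without title numbers 1 to 4 (adjusted p = 0.0535). Relative to 5 neuronal markers none of those 5 genes stayed called, and the 1 gene called was Grd, which was lower in GFP-positive cells. That scaling and the setting without title numbers 1 to 4 were chosen after seeing the data. Relative to 5 neuronal markers, log2 differences that changed sign in WT brains were -0.025 for Rdl, -0.69 for GABA-B-R3, -0.28 for VGAT, -0.17 for Gbeta13F and -0.47 for Adar. In KO brains they were -0.17 for GABA-B-R3, -0.0037 for VGAT, -0.26 for SecCl, -0.39 for Gbeta13F, -0.069 for Gbeta5, -0.17 for Nlg3 and -0.64 for Adar, and the interactions of Lcch3 and GABA-B-R2 became -0.092 and -0.086. GABA-B-R3 in WT brains was -0.035 with DESeq2, -0.074 with the rRNA-rich libraries left out and -0.091 without title numbers 1 to 4. Between GFP-positive groups GABA-B-R1 was 0.093 with lane as a covariate, 0.30 with the rRNA-rich libraries left out and 0.011 without title numbers 1 to 4. With quantile normalisation Grd was 0.0019 in WT GFP-positive against WT GFP-negative cells and 0.013 in KO GFP-negative against WT GFP-negative cells, and its interaction was 0.13 without title numbers 1 to 4. The GFP contrast of the GABA-B-R1 to GABA-B-R2 ratio was -0.054 with the rRNA-rich libraries left out. Without each library in turn it ran from -0.094 to 0.10. In KO GFP-positive against WT GFP-positive cells GABA-B-R1 then ran from -0.25 to 0.22 and Rdl from -0.23 to 0.48. In KO GFP-negative against WT GFP-negative cells GABA-B-R1 ran from -0.48 to 0.038, Rdl from -0.39 to 0.016 and Grd from -0.41 to 0.011. In WT brains GABA-B-R3 ran from -0.098 to 0.27. Interactions ran from -0.083 to 0.47 for GABA-B-R1, from -0.017 to 0.16 for GABA-B-R2, from -0.072 to 0.15 for Lcch3, from -0.0041 to 0.70 for Rdl and from -0.42 to 0.0054 for Grd. Apart from called genes on the scale of neuronal markers, these were differences that did not pass, and the cause of each change was not tested. Grd, at 12 to 70 reads, had no value with a floor of 5 in 3 libraries.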
